A study of Mus musculus with 2 samples.

Results

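The histone cluster genes are the features whose symbol begins with Hist1h, Hist2h, Hist3h or Hist4h. They were chosen by symbol alone, and 67 of the 32285 listed genes met the rule: 54 of cluster 1, 10 of cluster 2, 2 of cluster 3 and 1 of cluster 4. By protein family these are 6 linker histone genes (H1) and 18 H2A, 18 H2B, 12 H3 and 13 H4 genes. They were measured by Chromium 10X single-cell RNA sequencing of whole mouse kidney at postnatal day 0, a stage at which new nephrons are still being formed. Both libraries carry the genotype Rbpj c/+ ; Foxd1cre/+, so they form 1 group of n = 2. Rbpj is the transcription factor through which Notch signals in the nucleus. Foxd1 is a gene of stromal progenitors in the kidney, and a Cre driven from it acts there. No library without these alleles was analysed here. The labels name no litter, animal or pool. The p-values below therefore measure only the spread between these libraries, which may be technical. Values are given as replicate 1 followed by replicate 2, and the replicate numbers follow the order of deposit.

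DNA is wound around an octamer of the core histones H2A, H2B, H3 and H4, and linker histones H1 bind where it enters and leaves. Cells make most of this protein while they copy their DNA, from clustered genes without introns. The resulting mRNAs end in a conserved 3′ stem-loop in place of a poly(A) tail, are bound there by the stem-loop binding protein Slbp, and are degraded when replication ends. Some of the clustered genes also give polyadenylated mRNA from a site farther downstream, and this form is known from differentiated cells. Genes outside the clusters supply histone variants that are made without replication. Chromium libraries are primed on poly(A), so the counts below describe the histone mRNA that was captured. How much mRNA without a tail was missed was not measured.

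Barcodes were kept as cells if they had 3000 or more UMIs (unique molecular identifiers, each counting 1 captured mRNA), 500 or more genes and no more than 20% of UMIs from mitochondrial genes, 5529 in replicate 1 and 4206 in replicate 2. Their median depths were 15016 and 20007.5 UMIs, and the full matrices held 200331687 and 173166168 UMIs. Cell barcodes shared by both libraries numbered 6. Cells over 100000 UMIs numbered 256 and 198, and a doublet score marked 245 and 142 cells, which were kept here and removed in an alternative. Cell types were gated on 87 marker genes of 14 types. All 87 had a higher level inside their gate than outside it in both libraries, which the gate itself favours. Each type named below means the cells that passed its gate, and 12 types had at least 20 cells in both libraries. Levels are in CPM, the counts of a gene scaled to a fixed total of UMIs over the cells named. They are not scaled by gene length, because each mRNA is counted at its 3′ end.

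The 54 genes of cluster 1 lie on mouse chromosome 13. Cluster 2 is on chromosome 3, cluster 3 on chromosome 11 and the single Hist4h4 on chromosome 6 (GRCm38, GENCODE M21). The most counted member, Hist1h1b (ENSMUSG00000058773), occupies 21779883 to 21780625 on the minus strand of chromosome 13. In the annotation, the distance from stop codon to transcript end exceeded 150 bases in at least 1 transcript of 27 members, here called long 3′ ends, and in none of the other 40. The histone 3′ stem-loop was found by sequence in 46 members. Of the 21 without it, 17 have annotated transcripts that end within 50 bases of the stop codon. The other 4 are Hist1h2bc, Hist1h2bq, Hist1h2br and Hist2h2be, which have long 3′ ends. The core GGCTCTTTTCAGAGCC was shared by 26 members, and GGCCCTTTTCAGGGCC by 7, all of them H4 genes.

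The stem-loops of 6 members are shown because the same element stands in genes with very different behaviour below. Each line gives 30 bases of the transcript strand, with the 16-base stem-loop in capitals, from the GENCODE M21 transcripts. The windows lie on chromosome 13 at 23621782 to 23621811 (Hist1h1e, minus strand), 21833029 to 21833058 (Hist1h2ap, minus), 21810884 to 21810913 (Hist1h2ao, plus) and 23581936 to 23581965 (Hist1h4d, plus). Those of Hist3h2ba and Hist3h2a lie on the plus strand of chromosome 11 at 58949335 to 58949364 and 58955158 to 58955187.
Hist1h1e: cccaacaacccaaaGGCTCTTTTCAGAGCC
Hist1h2ap: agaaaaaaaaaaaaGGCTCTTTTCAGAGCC
Hist1h2ao: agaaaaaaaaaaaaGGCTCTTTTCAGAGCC
Hist1h4d: acccaaaaaccaaaGGCCCTTTTCAGGGCC
Hist3h2ba: gcccccaacccaaaGGCTCTTTTCAGAGCC
Hist3h2a: ttacagacaccaaaGGCTCTTTTCAGAGCC
Hist1h1e, Hist1h2ap, Hist3h2ba and Hist3h2a carry 1 identical core, and the Hist1h4d core differs from it within the stem. Of the 14 bases before the core, 13 are A in Hist1h2ap and 5 are A in Hist3h2ba. The windows of Hist1h2ap and Hist1h2ao are identical, yet the deposited counts gave 61398 UMIs to Hist1h2ap and 126 to Hist1h2ao. Of the 50-base words of their transcripts, 93.1% and 93.5% occur in another gene, so how the counts divide between such copies is uncertain. That holds for 32 members in which over 50% of the words are shared.

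Promoters were read for 62 of 67 members from the RefSeq table of GRCm38.p6, from 250 bases before to 50 bases after the annotated start. CCAAT, searched on both strands, was present in 53 of 62 (85.5%) against 37.9% of all 27025 promoters of this length. It was in all 50 H1, H2A, H2B and H3 promoters that were read and in 3 of 12 H4 promoters. TATAAA was in 35 of 62 (56.5%, against 14.2%). The octamer ATTTGCAT was in 13 of 62 (21%, against 1.75%), namely 7 of 18 H2A and 6 of 16 H2B promoters. Promoters are shown for Hist1h2ae, which was strongly higher in S-gated cells below, and for Hist3h2ba, which was not called there. They are in gene orientation with these motifs in capitals, at chr13:23571171-23571470 (minus strand) and chr11:58948661-58948960 (plus strand).
Hist1h2ae: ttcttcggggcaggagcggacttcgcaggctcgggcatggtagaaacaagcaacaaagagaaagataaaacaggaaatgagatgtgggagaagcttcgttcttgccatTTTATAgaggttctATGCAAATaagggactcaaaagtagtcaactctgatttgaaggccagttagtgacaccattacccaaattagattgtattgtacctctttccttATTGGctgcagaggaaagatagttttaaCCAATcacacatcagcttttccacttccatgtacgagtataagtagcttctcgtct
Hist3h2ba: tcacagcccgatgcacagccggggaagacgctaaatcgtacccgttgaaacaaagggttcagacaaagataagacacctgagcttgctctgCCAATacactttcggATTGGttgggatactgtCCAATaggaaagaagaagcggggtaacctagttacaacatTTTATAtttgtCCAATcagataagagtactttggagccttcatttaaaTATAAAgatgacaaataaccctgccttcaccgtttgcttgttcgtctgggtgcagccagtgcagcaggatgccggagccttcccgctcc
Both hold TATAAA and CCAAT on either strand, and the octamer, here as its reverse complement, is in Hist1h2ae only. The Hist1h2ae window overlaps that of Hist1h2bg, which starts 176 bases away on the opposite strand and was also counted with these motifs. The TATAAA match and the octamer shown for Hist1h2ae both read on the strand of Hist1h2bg. Which of these genes they serve was not tested. Windows of neighbouring genes can share a match in this way, so 1 match can count for both genes. Whether the octamer goes with the S-gate result was not tested, and Hist1h2bc and Hist2h2be were not among the promoters read. Other members with the octamer that were higher in S-gated cells are Hist1h2ab, Hist1h2ac, Hist1h2ah, Hist2h2ac, Hist1h2bb, Hist1h2bg, Hist1h2bk, Hist1h2bm and Hist2h2bb. Hist3h2a also holds the octamer and was lower there. Hist1h2ap and Hist1h2bj, which were higher there, hold neither the octamer nor TATAAA. These matches are letters in a window and say nothing of which factor binds.

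The 67 genes together gave 536753 UMIs in kept cells, a summed level of 2038 CPM in replicate 1 and 1845 CPM in replicate 2. Linker histone genes held 49.5% of these UMIs with 6 of the 67 genes, at 946 and 982 CPM. The core families stood at 473 and 403 CPM (H2A), 218 and 148 CPM (H2B), 116 and 94.3 CPM (H3), and 285 and 218 CPM (H4). The 5 most counted genes held 63.1%. Hist1h1b had 127380 UMIs, Hist1h1e 87762, Hist1h2ap 61398, Hist1h4d 35983 and Hist1h2ae 26250. At the other end, Hist1h2ba had no count, Hist1h2aa and Hist2h2aa2 had 1 each and Hist1h2bq had 3. All 63 other members had at least 20 counts, and 41 had at least 1000.

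Each cell was thinned to 3000 UMIs and assigned to a cycle class from 34 S-phase and 51 G2M genes, none of them a histone. A cell with at least 6 UMIs of the S list was S-gated. A cell with at least 12 UMIs of the G2M list and at most 3 of the S list was G2M-gated, and a cell with at most 3 and 7 was in neither gate. The S gate held 1251 and 1000 cells (22.6% and 23.8%), the G2M gate 409 and 163 cells (7.40% and 3.88%), and 3026 and 2422 cells were in neither. The other 843 and 621 cells lay between the gates. Of the S-gated cells, 169 and 134 had exactly 6 UMIs of the S list, so the classes are ranges of a score, not separate kinds of cell. Median depths were 19349 and 25372.5 UMIs in the S gate and 12940 and 17574 UMIs in neither.

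The summed level of the 67 genes was 569 and 578 CPM in cells of neither gate and 4790 and 3993 CPM in S-gated cells. In G2M-gated cells it was 1886 and 2215 CPM. The libraries lay close together in each class, and the classes did not overlap. To test single genes, counts were summed per library, cell type and cycle class, and S-gated cells were compared with cells in neither gate over the 8 types that had 20 cells of both classes in both libraries. Of the 60 members with enough counts to be tested, 55 were higher in S-gated cells, 1 was lower and 4 were not called (edgeR quasi-likelihood test, Benjamini-Hochberg adjusted p under 0.05). Among all 16678 tested genes, 15.2% were higher and 22.7% lower. The median log2 fold change was 3.25 over the members and -0.12 over all genes. In 20 of the 60 members at least 1 type had no count either in cells of neither gate or in S-gated cells, where a fitted value depends on few counts. On levels pooled over all kept cells of each class the median was 10.2-fold. These levels do not depend on that fit, but they mix cell types, including types outside the 8.

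The linker histones formed a graded series. Hist1h1b, a linker histone gene that encodes 1 of the somatic H1 proteins, stood at 20.1 and 26.7 CPM in neither gate, 1353 and 1206 CPM in the S gate and 350 and 493 CPM in the G2M gate. Both libraries kept this order, with no overlap between classes. Its log2 fold change in S-gated cells was 5.42 ± 0.14 (SE; edgeR adjusted p 1.8e-23). Hist1h1a stood at 4.44 and 4.39 CPM in neither gate and 115 and 102 CPM in the S gate (4.29 ± 0.11), and Hist1h1d at 12.2 and 13.4 and at 138 and 113 CPM (3.17 ± 0.13).

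Hist1h1e and Hist1h1c, somatic linker histones with long annotated 3′ ends, were high without the S gate. Hist1h1d has the longest annotated 3′ end of the H1 genes, 4931 bases, and was low there. Hist1h1e was at 138 and 190 CPM in neither gate and 606 and 590 CPM in the S gate, a log2 fold change of 1.69 ± 0.10. Hist1h1c was at 49.8 and 70.6 CPM and rose to 141 CPM in both libraries, with 1.28 ± 0.10 (edgeR adjusted p 1.5e-11), the smallest increase among these 5 genes. In cells of neither gate Hist1h1e was therefore the most counted member, while in S-gated cells Hist1h1b was. Hist1h1e overlaps Hist1h2be and the pseudogene Gm11398 on the same strand, so some of its reads may belong to them. Hist1h1t, the testis linker histone, had 53 UMIs and was not tested here.

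Among genes of H2A, which pairs with H2B in the nucleosome, 14 of 15 tested members were higher in S-gated cells. Hist1h2ap stood at 11.4 and 14.6 CPM in neither gate and 592 and 567 CPM in the S gate, a log2 fold change of 5.17 ± 0.13 (edgeR adjusted p 1.9e-23). Hist1h2ae stood at 6.56 and 7.96 CPM and at 285 and 226 CPM (4.93 ± 0.13). For both genes the classes lay far apart in each library. Hist1h2ab gave 5.49 ± 0.24, and Hist2h2ac, from cluster 2, gave 2.34 ± 0.14 with 11.3 and 5.95 CPM in neither gate and 84.4 and 24.9 CPM in the S gate. These last values differed more between libraries than those of Hist1h2ap, and the lower S-gated library was still above both values in neither gate.

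Hist3h2a of cluster 3 went the other way. It stood at 22.8 and 17.7 CPM in neither gate, 14.9 and 10.8 CPM in the S gate and 16.5 and 10.6 CPM in the G2M gate. Each library was lower in the S gate than in neither, without overlap, while the S and G2M gates overlapped. The log2 fold change was -0.64 ± 0.11 (edgeR adjusted p 1.3e-05). The level was lower in the S gate in both libraries of all 8 types, from 29.1 and 23.7 to 18.2 and 14.4 CPM in nephron progenitors and from 15.4 and 12.9 to 7.70 and 6.02 CPM in ureteric cells. In immune cells the second library moved only from 5.48 to 5.45 CPM. Hist3h2a overlaps Trim17 on the same strand, so reads of that gene could not be separated from it.

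Of 16 tested H2B genes, 12 were higher in S-gated cells, the smallest share of any family. Hist1h2bj was at 2.29 and 1.74 CPM in neither gate and 49.5 and 31.5 CPM in the S gate (log2 fold change 3.89 ± 0.18), Hist1h2bm gave 4.50 ± 0.19 and Hist2h2bb 2.79 ± 0.14. The 4 genes that were not called are Hist1h2bc, Hist3h2ba, Hist2h2be and Hist1h2bp. Hist1h2bp was low, at 0.165 and 0.207 CPM in neither gate and 2.19 and 1.91 CPM in the S gate, a pooled ratio of 13.2 and 9.23. The fit gave it no usable error. In 3 types it had no count either in cells of neither gate or in S-gated cells, which also holds for genes with a usable error.

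Hist1h2bc, the most counted H2B gene, was at 90.6 and 54.3 CPM in neither gate and 35.5 and 25.5 CPM in the S gate. The 4 values did not overlap between classes, but this pooled difference mixes cell types, and within types the log2 fold change was -0.30 ± 0.15 (edgeR adjusted p 0.134). With cycle gates set on all UMIs it was -0.41 and passed the threshold (edgeR adjusted p 0.017). Within stroma and endothelium, the types that could be compared, Hist1h2bc was higher in the G2M gate than in neither, by 1.17 ± 0.31 (edgeR adjusted p 0.0098). Over all types its level in the G2M gate was 78.5 and 86.1 CPM, below neither gate in replicate 1 and above it in replicate 2. Hist3h2ba, the H2B gene of cluster 3, was at 42.2 and 30.4 CPM in neither gate and at 44.9 and 25.8 CPM in the S gate, and these ranges overlapped. Its log2 fold change was -0.20 ± 0.26 (edgeR adjusted p 0.65), and single libraries gave opposite directions, -1.67 without replicate 1 and 0.20 without replicate 2. Hist2h2be was at 2.56 and 2.26 CPM and at 2.86 and 1.77 CPM, also overlapping (-0.17 ± 0.31, edgeR adjusted p 0.81). A p above the threshold does not show that the level of Hist3h2ba or Hist2h2be was equal in both classes.

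All 11 tested H3 genes were higher. Hist1h3c was at 1.55 and 1.52 CPM in neither gate and 85.5 and 71.0 CPM in the S gate, a log2 fold change of 5.38 ± 0.13. Hist1h3b reached 7.05 ± 0.35, from 0.256 and 0.144 to 20.5 and 14.5 CPM. In 3 types it had no count either in cells of neither gate or in S-gated cells. Hist1h3e (2.49 ± 0.13), Hist1h3i (3.70 ± 0.15) and Hist1h3a (3.57 ± 0.18) lay below them. For Hist2h3c1, which has 202 UMIs in all, the fit gave 1.83 ± 0.55 (edgeR adjusted p 0.0087) while its pooled ratio was only 1.04 and 1.34.

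All 13 tested H4 genes were also higher, with the lowest family median, 2.38. Hist1h4d, the most counted H4 gene, was at 46.2 and 40.7 CPM in neither gate and 335 and 222 CPM in the S gate (log2 fold change 2.38 ± 0.10). Hist1h4h (1.89 ± 0.11), Hist1h4c (1.75 ± 0.11), Hist1h4i (2.07 ± 0.17) and Hist1h4a (3.11 ± 0.21) moved the same way. Hist4h4, the lone gene of cluster 4, gave 1.60 ± 0.21. The medians of the other families were 3.17 (H1), 4.23 (H2A), 3.17 (H2B) and 3.70 (H3). Outside the 26 most counted members, 33 further genes were called with a log2 fold change of at least 1, from 1.60 for Hist4h4 to 7.36 for Hist1h2af. In 4 types Hist1h2af had no count either in cells of neither gate or in S-gated cells.

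Members with short and long annotated 3′ ends had different medians and overlapping ranges, and the difference was not tested. Among the short members are 15 whose annotated transcripts end within 2 bases of the stop codon. The split therefore describes the annotation, and the 3′ ends of the mRNAs were not measured. Of 36 tested genes with a short 3′ end, 35 were higher in S-gated cells, with a median log2 fold change of 3.94. Of 24 with a long 3′ end, 20 were higher and 1 was lower, with a median of 2.22. Summed, the short members went from 101 CPM in neither gate of both libraries to 2853 and 2401 CPM in the S gate. The long members went from 468 and 476 to 1937 and 1592 CPM. Long members held most of the histone signal outside the S gate. On pooled levels, which mix cell types, the medians were 16.9-fold for short and 5.42-fold for long members. At least 1 type was at 0 either in cells of neither gate or in S-gated cells for 17 of the 36 short and 3 of the 24 long members. The part this plays in the fitted medians was not tested.

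H2A and H2B genes also lie side by side. H2A and H2B genes with starts at most 500 bases apart on opposite strands form 12 pairs, 176 to 306 bases apart, and both genes of 10 pairs were tested. The H2A gene had more counts in 9 of the 12. Hist1h2ac and Hist1h2bc start 251 bases apart, with log2 fold changes of 2.86 and -0.30 in S-gated cells. Hist2h2ac and Hist2h2be start 239 bases apart, with 2.34 and -0.17. Hist1h2ae and Hist1h2bg start 176 bases apart, and had 26250 and 1128 UMIs. In the 8 tested pairs without Hist1h2bc or Hist2h2be both fitted values were above 2, as in Hist1h2ad and Hist1h2bf with 4.23 and 3.93.

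**Figure D1:**
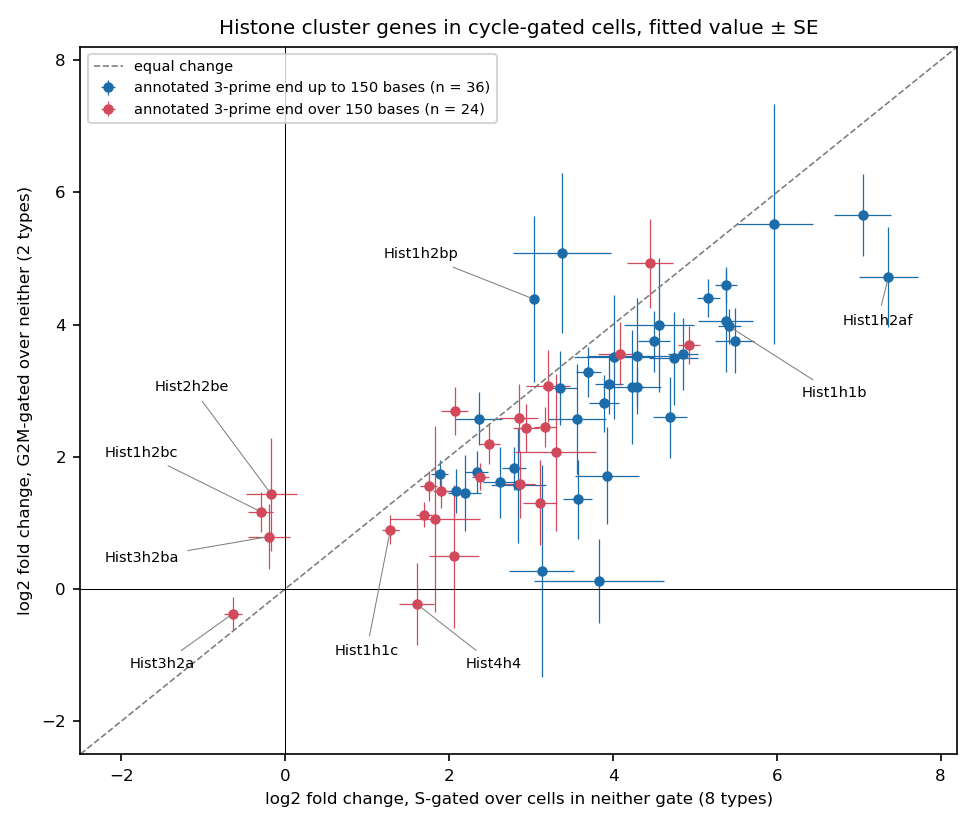
Each point is 1 of the 60 tested members, with its log2 fold change in S-gated cells on the x axis and in G2M-gated cells on the y axis, both against cells in neither gate, with bars of 1 SE (SEs of 2 or more are not drawn). Most points lie below the dashed line of equal change, and Hist3h2a, Hist3h2ba, Hist1h2bc and Hist2h2be stand apart near or left of 0.

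G2M-gated cells could be compared in the 2 types with enough of them, stroma and endothelium. There 46 of 60 members were higher than in cells of neither gate and 0 were lower (edgeR quasi-likelihood test). By DESeq2 it was 47 and 0, and 49 had an unadjusted p under 0.05. Over all tested genes 3.68% were higher and 8.34% lower. The median log2 fold change was 2.58 over the members and -0.29 over all genes. Set directly against each other in the same types, S-gated cells were higher than G2M-gated cells in 32 members and lower in 1, against 4.09% and 0.648% of all genes. Hist1h1b was higher by 1.90 ± 0.24, Hist1h2ap by 1.98 ± 0.23 and Hist1h4d by 1.08 ± 0.20. Hist1h2bc was the lower gene, at -1.11 ± 0.31 (edgeR adjusted p 0.033). For Hist1h4i the difference was -0.17 ± 0.31 (edgeR adjusted p 0.89). These counts rest on few G2M-gated cells. With gates set on all UMIs only stroma could be compared, and 15 members were higher in the G2M gate. With a stricter type gate only endothelium could, and 7 were higher in the S gate than in the G2M gate.

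Both lists together marked the cells richest in histone mRNA. In S-gated cells with 0 to 7 UMIs of the G2M list the summed level was 996 and 973 CPM. It was 2968 and 2776 CPM with 8 to 20 such UMIs, and 8280 and 7600 CPM with more. The median cell of that last class had 12111 and 10516 CPM. Over a grid of both lists the median cell rose from 544 CPM at 0 to 1 S and 0 to 3 G2M UMIs (2020 cells) to 14533 CPM at 13 to 18 S and 36 to 60 G2M UMIs (71 cells) and 19266 CPM with 19 or more S UMIs and the same G2M count (14 cells). With a high count of only the S list it was 1216 CPM (13 to 18 S and 4 to 7 G2M UMIs, 77 cells). With only the G2M list it was 900 CPM (0 to 1 S and at least 61 G2M UMIs, 24 cells). These are descriptions over cells, which are not replicates. Histone UMIs were concentrated accordingly. The 10% of cells in which members made up the highest share of UMIs held 56.8% and 55.6% of all histone UMIs. They held 9.94% and 11.9% of all UMIs, and 80.7% and 86.0% of these cells were S-gated. In the cell with the highest share, members made up 4.53% and 2.85% of all UMIs.

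**Figure D2:**
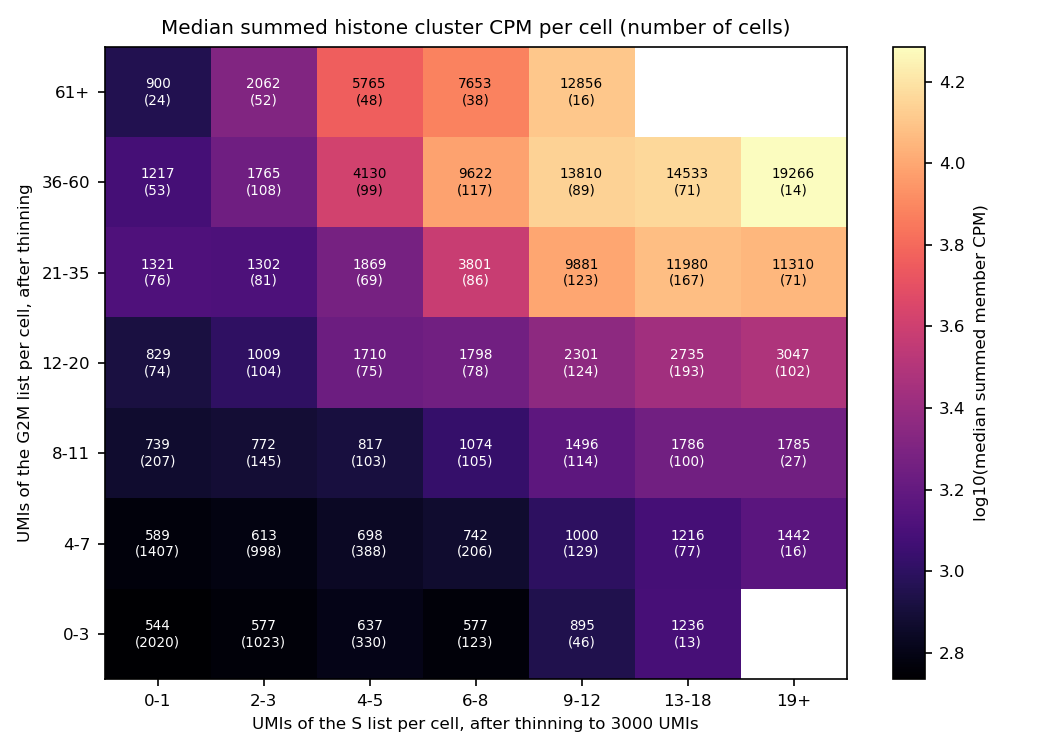
Each tile gives the median summed level of the 67 genes (CPM, colour on a log10 scale) over cells with the number of S-list UMIs on the x axis and G2M-list UMIs on the y axis, both after thinning to 3000 UMIs, with the number of cells in brackets. The level stays between 544 and 1321 CPM along the left edge, reaches 1236 CPM along the bottom, and is 14533 CPM in the 71 cells with 13 to 18 S and 36 to 60 G2M UMIs and 19266 CPM in the 14 cells beside them.

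Cell types differed in the summed level. Early nephron cells, gated on genes such as Lhx1, Wnt4 and Pax8 of newly formed nephrons, had 3941 and 3602 CPM, and stromal cells 3405 and 2208 CPM. Immune cells had 2598 and 3560, mural cells 2936 and 1995, and endothelial cells 2712 and 2334 CPM. Nephron progenitors had 2068 and 2070 CPM. Podocytes, the filtering cells of the glomerulus, had 1261 and 1334 CPM. The lowest levels were those of proximal tubule at 691 and 616 CPM and intercalated cells at 485 and 709 CPM. Early nephron cells were above each of the other 11 types in both libraries, while the order of immune, stromal, mural and endothelial cells differed between the libraries.

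The share of S-gated cells did not follow the same order throughout. It was 57.3% and 63.2% of early nephron cells, 28.9% and 35.1% of nephron progenitors, 21.7% and 23.9% of stromal cells, 4.43% and 6.81% of proximal tubule cells and 2.05% and 1.01% of podocytes. Nephron progenitors thus had a higher share than stroma and a lower summed level, and podocytes a lower share than proximal tubule and a higher level. Among barcodes of 100 to 499 UMIs, below the minimum for a cell, the summed level was 1462 and 1123 CPM, above that of proximal tubule and loop or distal cells. How far free RNA adds to the levels in cells was not tested.

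Against the unweighted mean of the other types, members were called as follows among the 61 tested. In early nephron cells 55 were higher and 1 lower (over all 17975 genes 27.6% and 23.5%). In stroma it was 47 and 2 (26.0% and 22.5%), in endothelium 44 and 3 (28.3% and 22.9%) and in mural cells 33 and 2 (24.0% and 19%). Immune cells gave 33 and 1 (22.6% and 22.7%), and nephron progenitors 27 and 2 (29.4% and 24.8%). A stricter type gate gave 21 higher members in stroma and 13 in mural cells, removal of doublets 21 in immune cells, and a fit without the library block 15 in nephron progenitors. Lower calls prevailed in intercalated cells, with 1 higher and 50 lower (26.7% and 22.7%), and in proximal tubule, with 3 and 49 (32.4% and 26.3%). The same held in podocytes, with 6 and 38 (24.7% and 24.0%), and in loop of Henle or distal tubule, with 1 and 37 (30.1% and 20.5%). Ureteric cells gave 0 and 12 (22.6% and 16.1%; 19 members had an unadjusted p under 0.05), and erythroid cells 3 and 0 (12.5% and 5.80%). Without cells over 100000 UMIs ureteric cells had 5 lower members and erythroid cells 9 higher ones.

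The few members that went against their type were mostly those outside the S-phase pattern. Podocytes were higher in Hist1h1c, Hist1h2bc, Hist2h3c1, Hist2h4, Hist3h2a and Hist3h2ba. Proximal tubule was higher in Hist1h2bc, Hist3h2a and Hist3h2ba, and the loop or distal tubule and intercalated cells in Hist2h2be. Endothelium was lower in Hist2h2be, Hist3h2a and Hist3h2ba, stroma in Hist2h2be and Hist3h2ba, mural cells in Hist1h2bc and Hist3h2ba, and immune cells in Hist3h2ba. Nephron progenitors were lower in Hist1h1c and Hist1h2bc, and early nephron cells in Hist1h2bc. Erythroid cells were higher in Hist1h1c, Hist1h2bc and Hist1h4i. Hist1h1t was called higher in stroma and mural cells, but at 1.1 and 0.489 CPM and at 1.32 and 0.346 CPM, from 53 UMIs in all kept cells, and the call in mural cells was lost with DESeq2 (adjusted p 0.146).

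**Figure D3:**
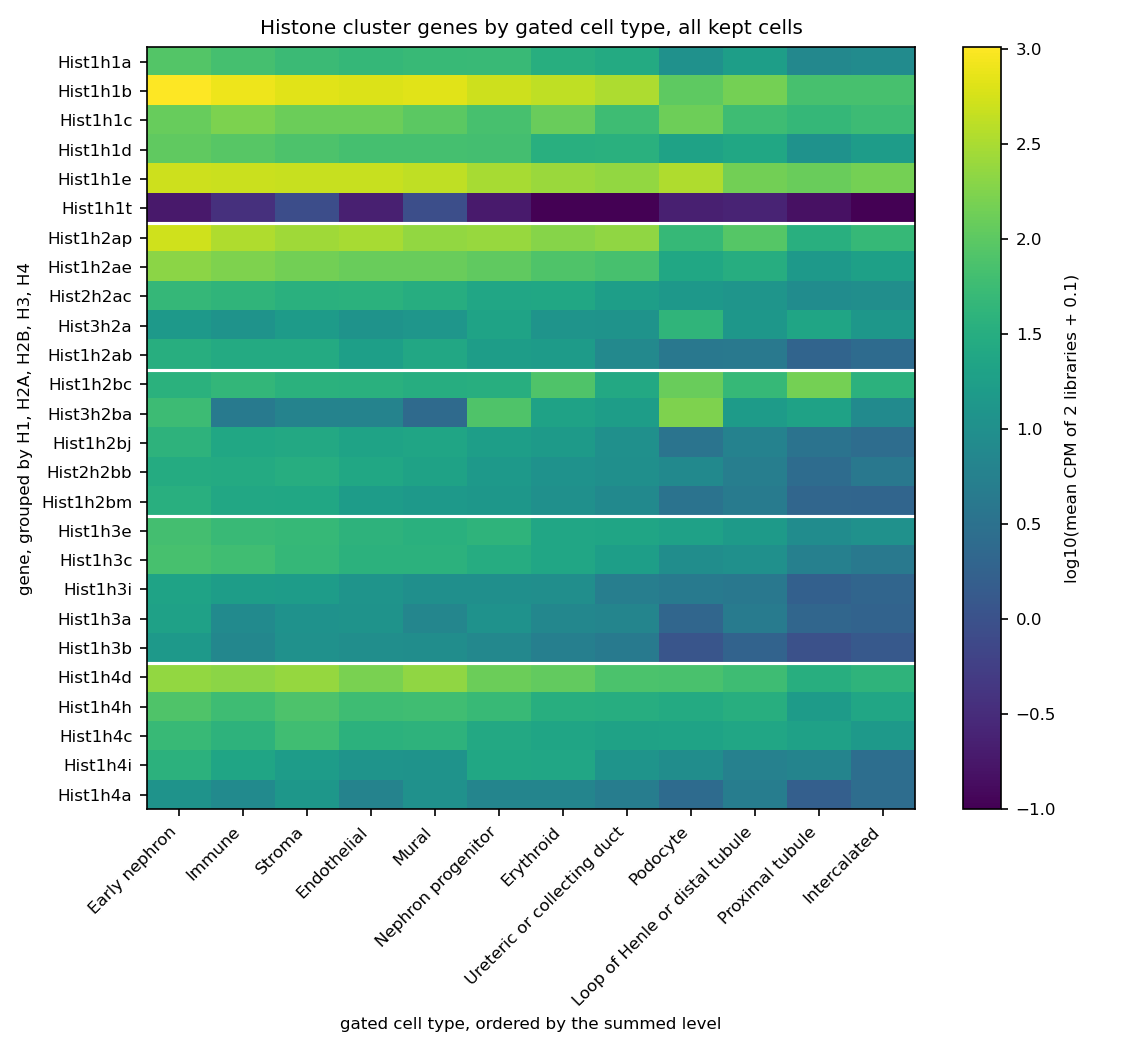
Colours give the log10 of the mean CPM of both libraries (plus 0.1) for the 26 most counted members, in rows grouped by family, across 12 gated cell types in columns, ordered from the highest summed level (early nephron) on the left. Most rows fade towards the right, while Hist3h2a, Hist3h2ba, Hist1h2bc and Hist1h1c stay bright in podocytes.

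**Figure D4:**
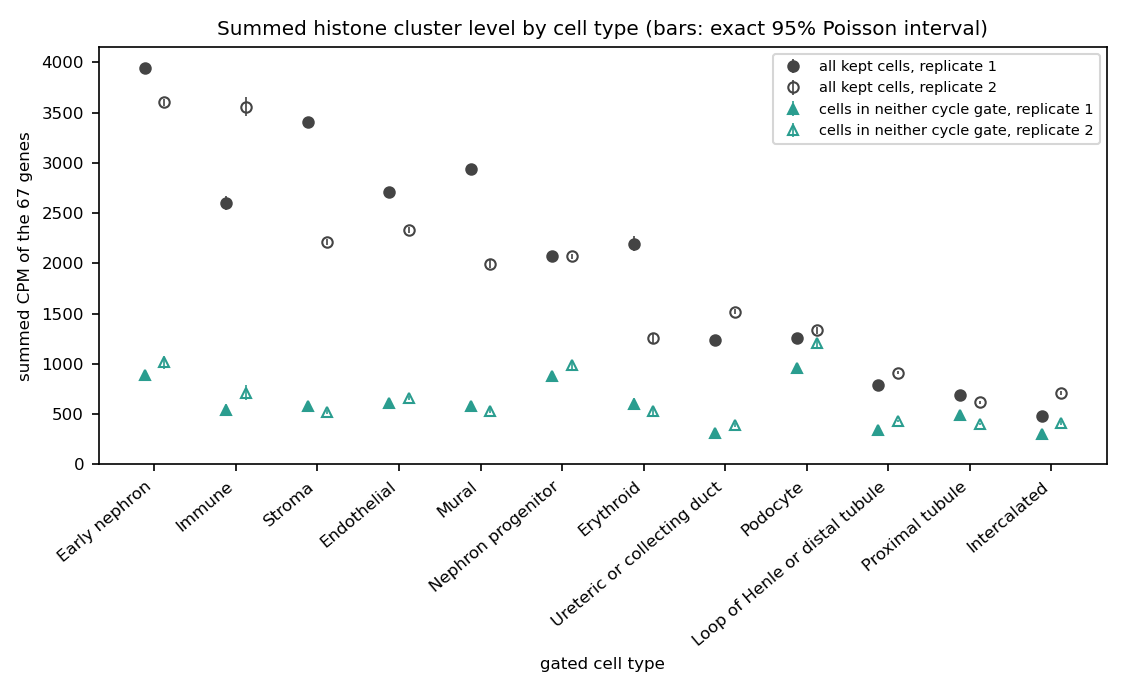
Points give the summed CPM of the 67 genes per library (filled, replicate 1; open, replicate 2) for 12 cell types, in all kept cells (circles) and in cells of neither cycle gate (triangles), with exact 95% Poisson intervals that cover counting error only. In all kept cells the levels run from 485 to 3941 CPM, and in cells of neither gate from 305 to 1205 CPM.

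In cells of neither gate, which leaves out the gated cells and those between the gates, the range narrowed and the order changed. Podocytes then had 956 and 1205 CPM, early nephron cells 888 and 1016, and nephron progenitors 875 and 984 CPM. Endothelial cells had 612 and 659 CPM, stromal cells 583 and 523, and mural cells 577 and 533 CPM. Proximal tubule (489 and 400), loop or distal tubule (345 and 433), ureteric (310 and 390) and intercalated cells (305 and 415 CPM) were lowest. In the same fit restricted to these cells 42 members could be tested. Nephron progenitors were higher in 26 and lower in 0 (over all 16240 genes 25% and 21%), and early nephron cells in 14 and 0 (13.8% and 9.80%). Podocytes were higher in 10 and lower in 1 (23.6% and 18.8%). With 42 members tested, the 10 higher calls in podocytes are near the share over all genes. Intercalated cells were higher in 1 and lower in 19 (24.6% and 16.8%), and proximal tubule in 3 and 17 (31.7% and 20%). Endothelium gave 3 and 4 (26.0% and 18.8%), stroma 4 and 4 (23.4% and 16.9%), immune cells 3 and 1 (17.7% and 16.3%) and mural cells 1 and 2 (21.7% and 13.7%). Hist3h2ba was among the lower genes in each of these 4 types. Erythroid cells gave 7 and 0 (11.1% and 3.31%). Over all types the calls fell from 253 higher and 197 lower to 74 and 67, with fewer members tested and fewer cells. The matching totals over all genes are not given here, so this fall cannot be read as particular to the members.

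Hist3h2ba had the widest spread between types in these cells. It stood at 167 and 195 CPM in podocytes, 122 and 98.6 in nephron progenitors and 79.4 and 71.8 CPM in early nephron cells. Proximal tubule (22.7 and 16.3), ureteric (16.1 and 13.4) and loop or distal cells (17.1 and 9.76 CPM) followed. Stroma had 7.01 and 4.22 CPM, endothelium 3.67 and 1.80, and mural cells 2.01 and 2.54 CPM. Podocytes were thus above nephron progenitors in both libraries, and these 3 types above the rest. The libraries differed most in erythroid cells, at 41.9 and 6.11 CPM from 34 and 6 UMIs. Against the mean of the other types Hist3h2ba was higher by 3.86 ± 0.14 in podocytes (edgeR adjusted p 2.9e-14), 3.02 ± 0.15 in nephron progenitors and 2.26 ± 0.20 in early nephron cells. It was lower at -2.97 ± 0.37 in mural cells and -2.77 ± 0.29 in endothelium. In barcodes of 100 to 499 UMIs Hist3h2ba stood at 25.4 and 18.4 CPM, above its level in stroma, endothelium and mural cells.

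Its cluster neighbour Hist3h2a, which starts downstream on the same strand, showed a narrower form of this. It was at 42.7 and 44.2 CPM in podocytes (log2 fold change 1.42 ± 0.14, edgeR adjusted p 1.7e-07) and 29.1 and 23.7 CPM in nephron progenitors (0.59 ± 0.16). In endothelium it was 13.9 and 9.84 CPM (-0.63 ± 0.18). Podocytes exceeded every other type in both libraries for Hist3h2a and Hist3h2ba.

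Hist1h2bc was high in proximal tubule, at 204 and 103 CPM, in podocytes at 140 and 135 and in erythroid cells at 102 and 108 CPM. Proximal tubule was the highest of these in replicate 1 and the lowest in replicate 2. The other 9 types lay between 18.9 and 48.1 CPM, with no overlap. The log2 fold changes were 1.90 ± 0.20 in proximal tubule (edgeR adjusted p 2.0e-07), 1.58 ± 0.22 in podocytes and 2.0 ± 0.29 in erythroid cells. Replicate 1 was higher than replicate 2 in proximal tubule, stroma and mural cells.

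Among the linker histones, Hist1h1c was at 102 and 161 CPM in podocytes (1.05 ± 0.13, edgeR adjusted p 2.6e-06) and 104 and 118 CPM in erythroid cells (1.62 ± 0.17). It was 28.1 and 45.2 CPM in ureteric cells (-1.03 ± 0.17). Hist1h1e was at 242 and 412 CPM in podocytes (0.95 ± 0.12) and 281 and 347 in early nephron cells (0.73 ± 0.13), against 65.5 and 109 CPM in loop or distal cells (-1.01 ± 0.14). Hist1h1c was higher in replicate 2 than in replicate 1 in all 12 types, and Hist1h1e in all but erythroid cells. Hist1h1b was instead highest in nephron progenitors, at 58.4 and 84.5 CPM (1.66 ± 0.20, edgeR adjusted p 1.7e-06), and low in proximal tubule at 5.99 and 9.50 CPM (-1.61 ± 0.26). Hist1h1a and Hist1h1d were also higher in nephron progenitors, by 1.86 ± 0.24 and 1.60 ± 0.16.

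Smaller genes had their own places. Hist2h2be, an H2B gene of cluster 2, was at 5.45 and 3.34 CPM in loop or distal cells (1.28 ± 0.32, edgeR adjusted p 0.0031) and 4.45 and 3.48 in intercalated cells (1.03 ± 0.38), and at 0.751 and 0.201 CPM in stroma (-2.32 ± 0.63). Hist2h3c1 and Hist2h4, an H3 and an H4 gene of cluster 2, were at 5.10 and 2.21 and at 5.58 and 3.44 CPM in podocytes, from 41 and 49 UMIs. No other type reached those values for Hist2h4 in either library. Hist1h4i was at 12.3 and 29.6 CPM in erythroid cells (2.94 ± 0.50, edgeR adjusted p 0.0003) and 17.9 and 18.3 CPM in immune cells.

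**Figure D5:**
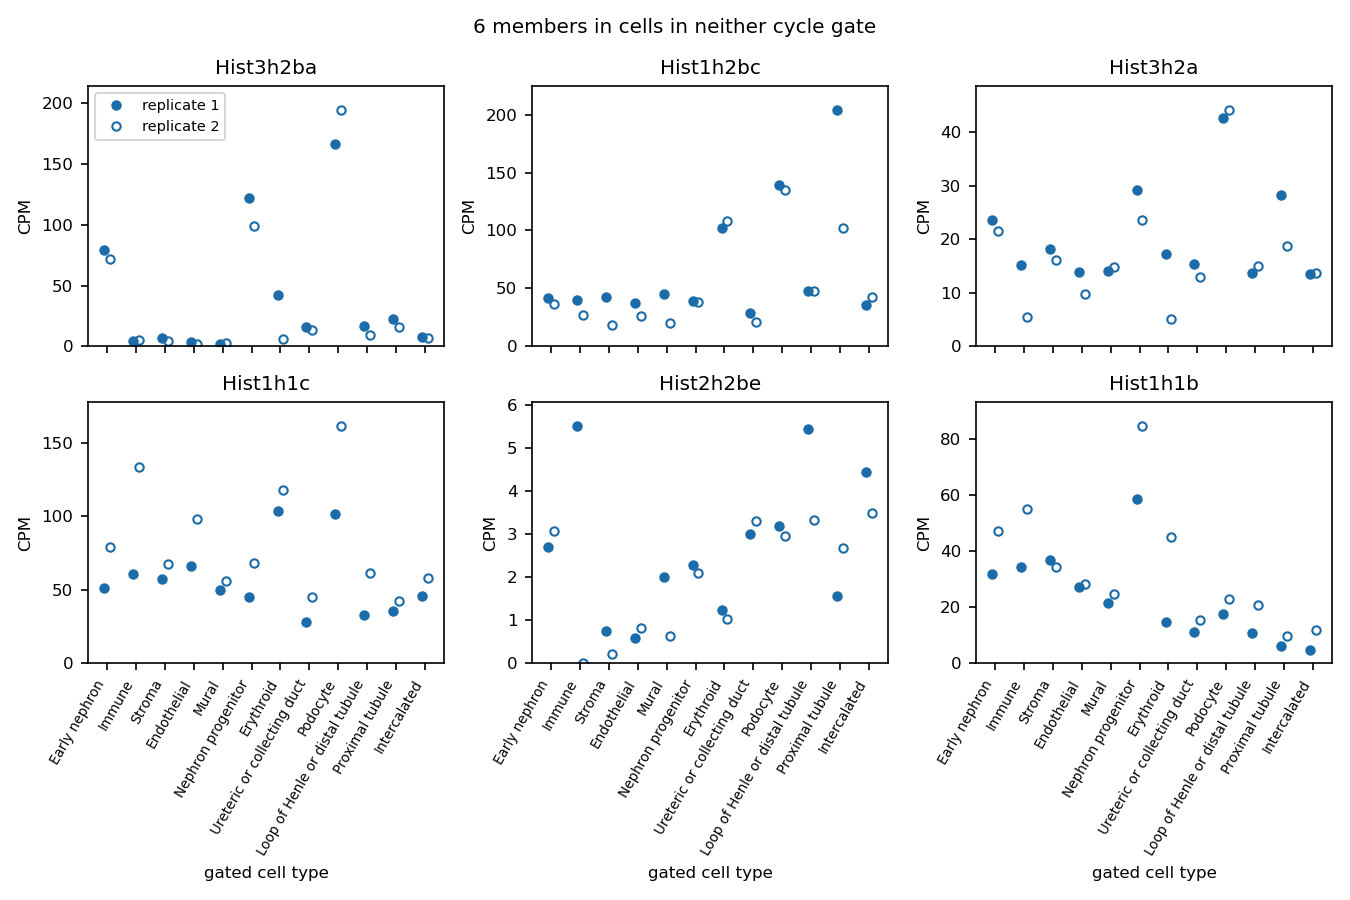
Each panel plots the CPM of 1 gene in cells of neither cycle gate for 12 cell types, with replicate 1 as filled and replicate 2 as open points, in the type order of the summed level. Hist3h2ba peaks in podocytes at 167 and 195 CPM and Hist1h2bc is high in proximal tubule (204 and 103 CPM), podocytes and erythroid cells, while Hist1h1b peaks in nephron progenitors.

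Within S-gated cells the types still differed. The summed level was 9061 and 5233 CPM in stroma, 8876 and 5281 in mural and 6001 and 5689 in endothelial cells. It was 4833 and 4495 CPM in early nephron cells, 3442 and 3162 in nephron progenitors and 1983 and 2509 CPM in loop or distal cells. In both libraries stroma, mural and endothelial cells were above the early nephron and nephron progenitor cells. Hist1h1b shows the pattern: it went from 58.4 and 84.5 to 941 and 985 CPM in nephron progenitors, log2 ratios of 4.01 and 3.54, and from 36.8 and 34.2 to 2481 and 1445 CPM in stroma, ratios of 6.07 and 5.40. The difference between types in the size of the S-gate change was not tested.

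The level was then followed by total UMIs per cell. In bins that start at 3000, 6000, 12000 and 24000 UMIs the summed level over all kept cells was 2426 and 2129, then 1471 and 1199, 2889 and 1497, and 1822 and 1993 CPM. No direction held along the bins. In cells of neither gate it was 891 and 656, 818 and 761, 748 and 729, and 427 and 491 CPM, lowest in the deepest bin of both libraries. The share of S-gated cells was 14.8% and 20.1% in the shallowest bin and 28.6% and 33.4% in the deepest. Between the deepest and shallowest bins within types (endothelium and loop or distal tubule), 0 of 56 tested members were higher and 1 was lower (edgeR quasi-likelihood test; 3 had an unadjusted p under 0.05, and DESeq2 gave 0 and 3). Over all genes 6.8% were higher and 0.607% lower, and the median log2 fold change was 0.47 over the members and 0.58 over all genes. The lower gene was Hist1h4h, at -1.18 ± 0.36 (edgeR adjusted p 0.039). On simulated counts the depth fit recovered 40% of true log2 changes of 1 and 73% of those of 2. The cycle fit, simulated only for S-gated cells against neither gate, recovered 95% and 100%. In both fits the true changes were placed only in genes above a minimum mean count. Few calls by depth therefore do not show equal levels. In cells of neither gate, which left only endothelium, 0 of 30 members were called (6 had an unadjusted p under 0.05), against 0.258% higher and 0.0816% lower of all genes. With at least 6000 UMIs per cell, the deepest bin was set against cells of 6000 to under 12000 UMIs, mural cells and podocytes also entered, and 18 members were higher. The share of all genes called higher in that setting is not given here, so the 18 calls cannot be read as particular to the members. The direction of the median also depended on the setting: it was -0.31 with DESeq2 and -0.69 in cells of neither gate.

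The libraries, which share 1 genotype label, cannot be tested against each other. The summed level in replicate 2 was 0.905 times that in replicate 1 (approximate 95% interval 0.901 to 0.910, counting error only). In cells of neither gate the ratio was 1.02. The families did not move together there: H1 genes were at 225 and 305 CPM and H2B genes at 153 and 103 CPM. Of the 63 members with at least 20 counts, 7 were higher in replicate 2. The largest ratio was 2.53 for Hist1h2bl, from 160 and 356 UMIs. Hist1h1c and Hist1h1e had ratios of 1.19 and 1.14, while Hist2h2ac had 0.360, Hist1h2ab 0.407 and Hist1h2ac 0.508. Cluster 2 genes were at 77.5 and 47.6 CPM and cluster 3 genes at 63.3 and 44.0 CPM. With 1 library on each side, the library and any other difference between the samples cannot be told apart.

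The genes that supply and process histones were described from a list of 21, of which 20 were tested in the S comparison. In S-gated cells 17 were higher, 1 was lower (Lsm10 at -0.26) and 2 were not called (Cpsf3 and Sympk), against 15.2% higher and 22.7% lower of all tested genes. The median log2 fold change was 1.18. Asf1b, a histone chaperone, was higher by 4.20, and the cyclin E genes Ccne2 and Ccne1 by 3.77 and 3.61. Chaf1b and Chaf1a, subunits of chromatin assembly factor, were higher by 2.88 and 2.79. Slbp itself was higher by 1.38 in S-gated cells and by 2.07 in S-gated over G2M-gated cells. In G2M-gated cells Asf1b and Nasp of this list were higher and 0 were lower by edgeR (8 had an unadjusted p under 0.05). Over all tested genes 3.68% were higher and 8.34% lower, and 46 of 60 clustered members were higher.

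The 11 genes of replication-independent variants had a lower median change. In S-gated cells 8 were higher and 1 was lower (H2afj at -0.15), against 15.2% and 22.7% of all tested genes. The median was 0.94 on the log2 scale. Cenpa, the centromeric H3, was higher by 2.74, H2afx, the H2A of the DNA damage response, by 2.66 and H2afz by 1.56. H1fx and H2afy2 followed with 1.39 and 0.95. H3f3a and H3f3b, which both encode H3.3, were at 1293 and 1309 and at 1369 and 1564 CPM in kept cells and were not called. Between S-gated and G2M-gated cells, 0 of the 11 were higher in the S gate by edgeR (7 had an unadjusted p under 0.05 in either direction). With 11 genes this is near the share over all tested genes, 4.09%. Lower in the S gate were 3, against 0.648% of all tested genes: Cenpa at -2.08, H2afx at -0.55 and H2afv at -0.47.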

How the data were processed

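The deposited files hold raw UMI counts per gene and barcode for 2 libraries, made by the authors with Cell Ranger 4 per the file headers and Cell Ranger 6.0.1 on mm10 per the submitters' processing notes. The annotation release and whether introns were counted are not given in the sources used here. Barcodes with at least 3000 UMIs, 500 genes and at most 20% mitochondrial UMIs were kept. A cell took the type with the highest mean z-score over its markers (log of depth-scaled counts, capped at 5), if that was at least 0.5, exceeded the next type by 0.25 and at least 2 markers were detected. Cycle gates used UMIs thinned to 3000 per cell.

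Counts were summed per library and class (at least 20 cells in both libraries) and fitted with edgeR 4.0.16 in R 4.3.3: TMM scaling, filterByExpr, class means with the library as a block, two-sided quasi-likelihood F tests. Cells were not used as replicates. Genes used for no gate were adjusted together by Benjamini-Hochberg, with a threshold of 0.05. The filter on low counts kept 60 members in the cycle fit, 61 in the type fit and 56 in the depth fit, so counts of calls do not cover all 67. Summed levels of single libraries were given exact 95% Poisson intervals, and the ratio between the libraries a normal approximation on the log scale. The fits were first tested on simulated counts. Alternatives were DESeq2 (size factors, or its Wald test), no filter, no library block, at least 6000 UMIs, removal of the highest Scrublet scores (0.8% per 1000 cells), removal of cells over 100000 UMIs, cycle gates on all UMIs, a stricter type gate, cells of neither cycle gate, and each library alone. The stricter gate and the type fit in cells of neither gate were added after the data had been seen. All 67 symbols matched GENCODE M21 (GRCm38).

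Genes were named by rule: every H1 member with at least 20 counts, the 5 most counted members of each core family, further members called in the S comparison with an absolute log2 fold change of at least 1, and up to 5 genes of each comparison list. Members singled out by type were chosen after their values were seen. The members and lists were chosen with earlier results of these data known.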

Additional observations from a re-analysis of the deposited data

Results flagged for a closer look

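Barcodes under 3000 UMIs, which enter no comparison, held histone cluster counts. As means of both libraries, the summed level was 1107 CPM in barcodes under 10 UMIs. It was 1134 CPM from 10 to under 100 UMIs, 1292 CPM up to 500, 1166 CPM up to 1000 and 1241 CPM up to 3000 UMIs. These values are above the limit that a count of 0 allows, and no control sample without cells was analysed here. Kept cells of neither cycle gate had 569 and 578 CPM, and all kept cells 2038 and 1845 CPM.

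Hist3h2ba had differences of opposite sign between S-gated and other cells in different cell types. The mean log2 ratio of CPM in S-gated cells over cells of neither gate was 0.30 in loop of Henle or distal tubule and 0.49 in ureteric cells, positive in both libraries. It was -0.52 in early nephron cells and -0.87 in nephron progenitors, negative in both. The difference between these types was not tested.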

How the results depend on the processing

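The count of members higher in S-gated cells stayed within 1.5 times 55 under each alternative run, 2 members were lower with cycle gates on all UMIs, and the median ran from 3.24 to 3.59 with 1 library alone. In G2M-gated cells gates on all UMIs gave 15 higher members and a median of 1.60 with only stroma left, and single libraries gave medians of 1.95 and 2.66. For S against G2M, a stricter type gate, which left only endothelium, gave 7 higher, 0 lower and a median of 0.877. Without the library block 0 were lower, gates on all UMIs gave a median of 2.22, and single libraries 1.22 to 1.53. By depth, higher members numbered 18 with at least 6000 UMIs and 1 without the filter on low counts. Shares over all genes in these settings are not given here. Lower members numbered 3 with the DESeq2 test and without the filter. They numbered 0 in cells of neither gate, without the library block, with a stricter type gate and without cells over 100000 UMIs. The median was 0.25 with DESeq2 size factors, 1.82 with at least 6000 UMIs and 0.70 without the filter. It turned negative with the DESeq2 test (-0.31), in cells of neither gate (-0.69) and with a stricter type gate (-0.079), and was 1.78 and 2.03 in single libraries. The cause was not tested.

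Calls by type fell to 74 higher and 67 lower in cells of neither gate. Without the totals over all genes this fall cannot be read as particular to the members. The ratio between libraries was 0.836 without cells over 100000 UMIs and 0.898 without doublets. Of 637 values of single members in the S comparison under other settings, 634 kept their direction and side of the threshold. Hist3h2ba turned to 0.0075 without doublets, and 1 library alone gave -1.67 (without replicate 1) or 0.20 (without replicate 2), and Hist1h2bc passed the threshold with gates on all UMIs (-0.41, edgeR adjusted p 0.017). Of 280 type values, 266 kept theirs. In cells of neither gate Hist1h1e in stroma turned to -0.021 and Hist1h2ab in immune cells to -5.36, neither called. No other paired analysis was possible because both libraries belong to 1 group. The library block is the pairing of classes within a library. With 2 libraries the error of each value is known poorly, and single-library fits have no test.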
